A study of Mus musculus with 2 samples.

Results

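The lectin pathway and several regulators of complement were followed in mouse liver through 9 genes: Mbl1, Mbl2, Masp1, Masp2, C1ra, Cfd, Cfi, C4bp and Cd55. The genes were chosen by name, with earlier results of these data known. Of the 9, 7 had a row among the 8551 genes of the expression table. Masp1 and Cfi were not analysed here. Liver was taken at 9 weeks of age, about 3 h into the light phase, from male wild type mice of C57BL/6 background (the normal group) and from male db/db mice labelled with the same background (the diabetic group). The db/db genotype carries a defective leptin receptor in all tissues, and these mice become obese and diabetic. Each group has 1 library, hence none of the differences has a replicate check, and whether the RNA of several mice was pooled is not stated in the sources used here. In both libraries the hepatocyte gene Alb was abundant, at 6801 TPM in normal liver and 6912 TPM in diabetic liver. Other hepatocyte markers were less level. From normal to diabetic liver, Asgr1 went from 199 to 380 TPM and Hnf4a from 96.8 to 46.2 TPM. Tat went from 1763 to 1533 TPM and Ttr from 257 to 239 TPM.

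Complement is a cascade of plasma proteins, most of them made by hepatocytes, that marks microbes and damaged cells and can end in lysis. In the lectin pathway, mannose-binding lectins bind sugars on a surface and carry the serine proteases of the Masp family, which cut C4 and C2 to form the C3 convertase. C1r is a serine protease that acts beside C1q in the classical pathway, and factor D cuts factor B in the alternative pathway. Regulators hold the convertases in check: factor I cuts C3b and C4b, C4b-binding protein is its cofactor, and Cd55 on the cell surface speeds the decay of the convertases.

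Expression was read from short tags that begin at a DpnII site (GATC) in the cDNA. Each value is the number of tags of a gene per 1000000 clean tags of its library, which the deposited table calls TPM. It is a tag count that was not divided by transcript length. Because a tag is the physical unit counted for each gene, the tags lying at the DpnII site nearest the 3' end of the longest protein-coding GENCODE M21 transcript are shown for the 9 genes and for C1rb, the close paralog of C1ra. They are 20 bases long, the DpnII site is in capitals, and the deposited table does not say which sites were counted.
Mbl1: GATCctctctgtgactgagc
Mbl2: GATCttgggaaatggcaagt
Masp1: GATCatgcctgggattcatt
Masp2: GATCagctattaaattaaca
C1ra: GATCgtgggtggagcaacca
C1rb: GATCaagaaagagatgggag
Cfd: GATCgaaaacatcacaaatg
Cfi: GATCgctactatgagaaaga
C4bp: GATCcatgagaaaaaatata
Cd55: GATCtgagtcaggaatagtt

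On GRCm38, the Mbl1 tag lies at chr14:41159400-41159419 (plus strand) in the 3' UTR, in exon 5 of 5, and the Mbl2 tag at chr19:30239449-30239468 (plus strand) in the coding sequence, in exon 6 of 6. The Masp2 tag lies at chr4:148614906-148614925 (plus strand) in the 3' UTR of exon 11. The C1ra tag lies at chr6:124523325-124523344 (plus strand) in the 3' UTR of exon 11, and the Cfd tag at chr10:79892550-79892569 (plus strand) in the coding sequence of exon 5. On chromosome 1, the C4bp tag lies at chr1:130635010-130635029 and the Cd55 tag at chr1:130439336-130439355, both on the minus strand and in the 3' UTR. The Masp1 tag lies at chr16:23449487-23449506 (minus strand, 3' UTR) and the Cfi tag at chr3:129874357-129874376 (plus strand, coding sequence).

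None of the 9 tags of the named genes occurred at a DpnII site in a transcript of another gene, among 141767 transcripts searched. The paralogs differ in this respect. The 3'-most tag of C1rb also occurs in C1ra, where it lies at the site next to last, and 8 of the 14 full tags of C1ra are shared with C1rb. Cd55 shares 1 of its 5 full tags with its own paralog Cd55b. With any other gene, C1ra shares 9 of its full tags and Cd55 shares 2. The study set tags that mapped to a single gene apart from those that mapped to several. Which of them entered the table is not stated outright in the sources used here. All rows of the table together took up 37.1% of normal and 44.4% of diabetic clean tags. Both shares lie near the average that the paper gives for tags mapped to unique genes. They lie well below its average for tags mapped to any gene. Which tags were counted for C1ra or Cd55 was not tested. Because of the shared tags the values of C1ra are uncertain, and those of Cd55 to a lesser degree. Masp2, C4bp and Cd55 each have shorter protein-coding transcripts with another 3'-most tag, and their values are for the gene as a whole.

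The libraries held 10278531 clean tags (normal) and 13508232 clean tags (diabetic), computed from the equal steps in which the deposited values increase. One read was 0.0973 TPM in normal liver and 0.0740 TPM in diabetic liver. The 7 genes together held 7513 reads in normal liver and 11641 reads in diabetic liver. Ratios are diabetic over normal TPM. Their 95% Clopper-Pearson intervals reflect counting error alone, without variation between mice, and the tags carried no molecular identifiers, so reads of one molecule can repeat. The median log2 ratio of all listed genes was 0.25, so 4 further scalings were tried, which lowered each log2 ratio by amounts between 0.25 (trimmed mean of M values, TMM) and 0.31 (median ratio).

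Cfd was at least 1.5-fold higher in the diabetic library, as was Cd55, and C1ra was at least 1.5-fold lower. The other 4 genes, Mbl1, Mbl2, Masp2 and C4bp, differed by less than 1.5-fold. At the same threshold 34.4% of all listed genes were higher and 15.3% were lower, and 2 higher and 1 lower of 7 is close to these shares. The table kept genes averaging at least 1 TPM, and Cfd was below that in normal liver, so the listing fixed its direction. The median log2 ratio of the 7 genes was 0.29 beside 0.25 for all listed genes. Summed over the 7 genes, the level went from 730.9 to 861.8 TPM, a ratio of 1.18, beside 1.20 for the sum of all listed genes.

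**Figure D1:**
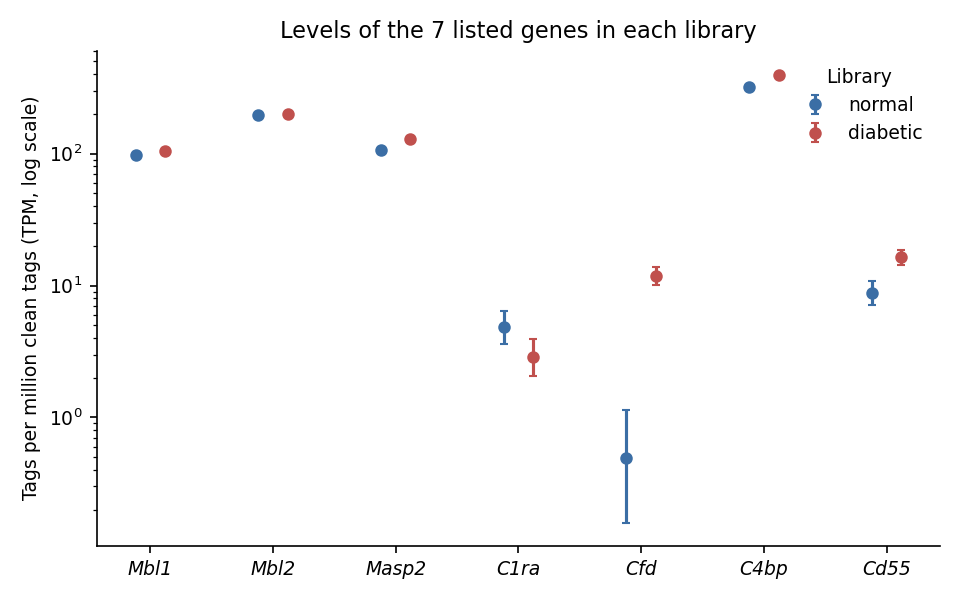
Level of each of the 7 listed genes in the normal library (blue) and the diabetic library (red), in TPM on a log axis, with exact 95% Poisson intervals from the reads; some intervals are narrower than the points. The gap is widest for Cfd, 0.49 against 11.84 TPM, while Mbl1 and Mbl2 are nearly level.

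The mannose-binding lectins were at nearly the same level in both libraries. Mbl1 (Entrez 17194), which encodes mannose-binding lectin A, was at 97.5 TPM in normal liver and 105 TPM in diabetic liver, from 1002 and 1420 reads. Its log2 ratio was 0.11 (95% interval, -0.01 to 0.23). Mbl2 (Entrez 17195), which encodes mannose-binding lectin C, was at 196 TPM in normal liver and 200.2 TPM in diabetic liver, from 2012 and 2705 reads. Its log2 ratio was 0.03 (95% interval, -0.05 to 0.12). At this depth neither lectin showed a difference beyond counting error as deposited, and the intervals of both lie within 1.5-fold of equal.

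For each read of Mbl2 there were 0.498 reads of Mbl1 in normal liver and 0.525 in diabetic liver. The log2 ratio of Mbl1 exceeded that of Mbl2 by 0.08, with an exact conditional 95% interval of -0.07 to 0.22 that holds 0. This comparison within the libraries does not depend on the scaling between them. Relative to the typical listed gene, both lectins were slightly lower in the diabetic library. Under TMM scaling the log2 ratio was -0.14 (95% interval, -0.26 to -0.03) for Mbl1 and -0.22 (95% interval, -0.30 to -0.14) for Mbl2, and both were below 0 under each of the 4 scalings.

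Masp2 (Entrez 17175), the protease that cuts C4 and C2 in the lectin pathway, was at 106 TPM in normal liver and 129 TPM in diabetic liver. With 1087 and 1742 reads its log2 ratio was 0.29 (95% interval, 0.18 to 0.40), a 1.22-fold higher value that lay near the median of all genes, at percentile 51.7. Under TMM scaling it was 0.03 (95% interval, -0.08 to 0.14). The protease therefore stood slightly higher against the lectins in the diabetic library. Mbl2 had 1.85 reads for each read of Masp2 in normal liver and 1.55 in diabetic liver, a log2 difference of -0.25 (95% interval, -0.39 to -0.11). For Mbl1 against Masp2 the log2 difference was -0.18 (95% interval, -0.34 to -0.02).

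C1ra (Entrez 50909), a protease of the classical pathway that is related in structure to the Masp proteases, was at 4.86 TPM in normal liver and 2.89 TPM in diabetic liver. Only 50 and 39 reads stand behind these values. The diabetic value was 1.68-fold lower, and the log2 ratio of -0.75 was loosely bounded (95% interval, -1.40 to -0.12). The paralog C1rb (Entrez 667277), which shares most tags of C1ra, was at 179 TPM in normal liver and 156.5 TPM in diabetic liver, a log2 ratio of -0.20 (95% interval, -0.29 to -0.10). The log2 ratio of C1ra was below that of C1rb by 0.56, and the 95% interval of this difference, -1.21 to 0.08, holds 0.

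Cfd (Entrez 11537) encodes complement factor D, also called adipsin, the protease that starts amplification in the alternative pathway and is best known as a product of fat cells. It was at 0.49 TPM in normal liver and 11.84 TPM in diabetic liver, from 5 and 160 reads. Its level was 24.2-fold higher in the diabetic library, and with so few normal reads the 95% interval reached from 10.2-fold to 76.0-fold. By level it moved from rank 8420 of the 8551 listed genes to rank 3433, and its log2 ratio of 4.59 was at percentile 99.4 of all genes. Under the 4 other scalings the log2 ratio of Cfd stayed between 4.29 and 4.34. With a pseudocount of 1 TPM it was 3.11, on the log2(TPM + 1) scale, which understates the change of a gene at so low a level.

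The values of Cfd were set beside those of other fat cell genes. Of 8 adipocyte markers, 4 were listed, and Adipoq, Lep, Retn and Plin1, the markers most particular to fat cells, were not analysed here. Fabp4, a fatty acid binding protein also made by macrophages and endothelium, was at 8.56 TPM in normal liver and 26.58 TPM in diabetic liver. Cidec and Cidea encode lipid droplet proteins that also appear in fatty hepatocytes. Cidec had 2 normal and 176 diabetic reads, which gave a log2 ratio of 6.10 (95% interval, 4.19 to 9.12), or 5.48 with the normal library set to 3 reads. Cidea had 0 normal reads and 95 diabetic reads. With the normal library set to the floor of 3 reads, or 0.292 TPM, it was 24.1-fold higher. The lower end of its 95% interval was 19.2-fold. Lpl, lipoprotein lipase, was 1.70-fold lower in the diabetic library, at 15.57 and 9.18 TPM. The 4 listed markers summed to 24.3 TPM in normal liver and 55.8 TPM in diabetic liver. At least 1.5-fold higher were 3 of the 4, beside 34.4% of all listed genes. The table kept genes whose mean over both libraries was at least 1 TPM. Cfd, Cidec and Cidea were below 1 TPM in normal liver, so they could be listed only by being higher in diabetic liver. For these genes the direction was therefore fixed by the listing. The part of the markers in the value of Cfd was not tested, and in bulk liver more cells of a type and more RNA per cell cannot be told apart.

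**Figure D2:**
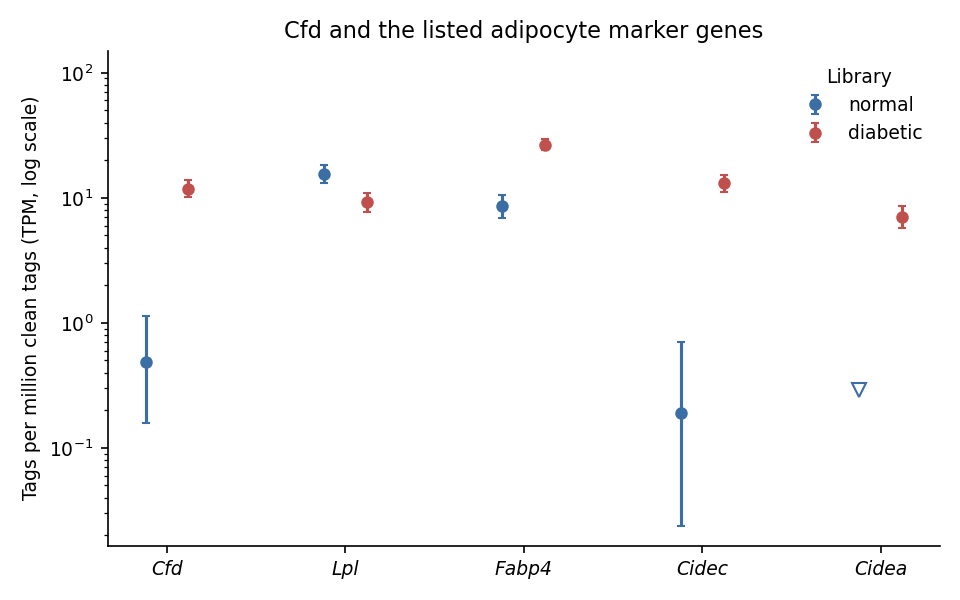
Level of Cfd and of the 4 listed adipocyte markers in the normal library (blue) and the diabetic library (red), in TPM on a log axis, with exact 95% Poisson intervals from the reads. The open triangle is set at the floor of 3 reads for Cidea, which had no read in the normal library. Cfd, Fabp4, Cidec and Cidea are higher in the diabetic library and Lpl is lower.

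C4bp (Entrez 12269), the plasma cofactor that helps to inactivate C4b and so limits the classical and lectin pathways, had the highest value of the 7 genes. It was at 318 TPM in normal liver and 396 TPM in diabetic liver, from 3266 and 5353 reads. Its log2 ratio was 0.32 (95% interval, 0.26 to 0.38), a 1.25-fold higher value. That lay near the typical gene, at percentile 53.2, and under TMM scaling the log2 ratio was 0.07 (95% interval, 0.00 to 0.13). The proportion of C4bp to Masp2 did not differ beyond counting error. C4bp had 3.00 reads for each read of Masp2 in normal liver and 3.07 in diabetic liver, a log2 difference of 0.03 (95% interval, -0.10 to 0.16). Against Mbl2 the log2 ratio of C4bp was higher by 0.29 (95% interval, 0.18 to 0.39).

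Cd55 (Entrez 13136), the decay accelerating factor on the cell surface, was at 8.85 TPM in normal liver and 16.43 TPM in diabetic liver, from 91 and 222 reads. Its log2 ratio was 0.89 (95% interval, 0.53 to 1.26), a 1.86-fold higher value at percentile 78.2. The lower bound, 1.45-fold, lies under the threshold of 1.5-fold. Under the 4 scalings Cd55 kept a log2 ratio of 0.59 to 0.64, where 1.5-fold is 0.58. The membrane regulator was higher relative to the plasma regulator: the log2 ratio of Cd55 exceeded that of C4bp by 0.57 (95% interval, 0.21 to 0.95).

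**Figure D3:**
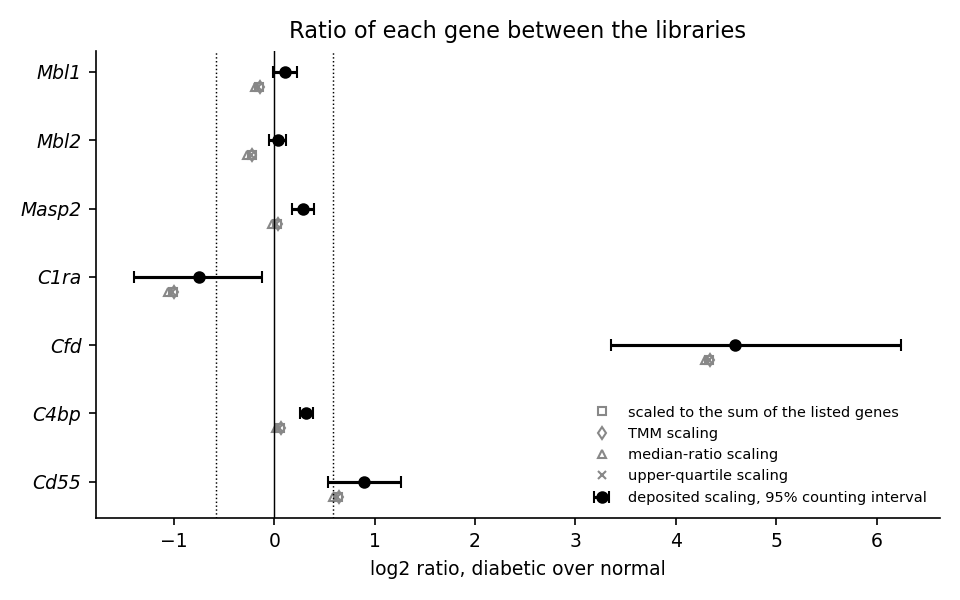
Log2 ratio of diabetic over normal for each of the 7 genes, with black points and bars for the deposited scaling and its 95% counting interval and grey symbols for the 4 other scalings; dotted lines mark 1.5-fold. Cfd at 4.59 lies far to the right, C1ra at -0.75 is left of 0, and the grey symbols of Mbl1 and Mbl2 lie left of 0.

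In order of TPM, the genes of the normal library ran C4bp, Mbl2, Masp2, Mbl1, Cd55, C1ra and Cfd. In the diabetic library the order was the same except that Cfd stood above C1ra. Masp2 and Mbl1 could not be told apart in the normal library, where their exact Poisson intervals were 99.6 to 112 TPM and 91.5 to 104 TPM. In the diabetic library the interval of Masp2, 123 to 135 TPM, lay above that of Mbl1, 99.7 to 111 TPM. The intervals of Cd55 and Cfd in the diabetic library, 14.3 to 18.7 TPM and 10.1 to 13.8 TPM, did not overlap.

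As deposited, the 95% counting interval of the ratio lay above 0 for 4 of the 7 genes, beside 40.2% of all listed genes, below 0 for 1, beside 18.6%, and held 0 for 2. Under TMM scaling it lay above 0 for 3 genes (Cfd, Cd55 and C4bp), below 0 for 3 (C1ra, Mbl1 and Mbl2), and held 0 for Masp2, beside 29% of all listed genes above 0 and 28.5% below. C4bp was above 0 by a narrow margin there, and its interval held 0 under the other 3 scalings. The calls by 1.5-fold did not move, with 2 genes higher and 1 lower under each of the 4 scalings. Beside them, the shares of all listed genes called higher and lower were 23.7% and 23.9% when both libraries were scaled to the sum of their listed genes, 24% and 23.7% with TMM, 21.9% and 25.6% with median-ratio scaling, and 23.4% and 24.3% with upper-quartile scaling. When each gene also had to pass an exact binomial test (two-sided) of its reads (Benjamini-Hochberg adjusted over all listed genes, FDR under 0.001), a comparison of libraries rather than of conditions, Cfd and Cd55 were called higher, beside 22.9% of all genes, and none of the 7 was called lower, beside 8.19%. C1ra had an FDR of 0.034 in that exact test. In all these counts the direction of Cfd was fixed by the listing, because it was below 1 TPM in normal liver.

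**Figure D4:**
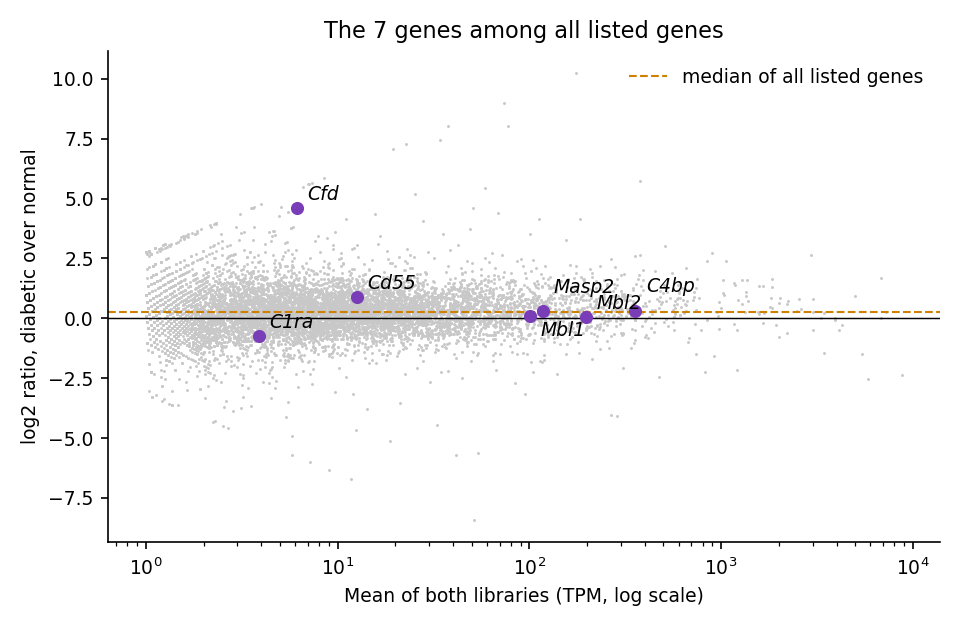
Log2 ratio of diabetic over normal against the mean level in TPM (log axis) for all listed genes (grey) and the 7 genes (purple), with genes of 3 reads or fewer in a library set to 3 reads there; the dashed line is the median of all listed genes, 0.25. Mbl1, Mbl2, Masp2 and C4bp lie close to that line at 101 to 357 TPM, and Cfd lies at the upper edge at a mean of 6.17 TPM.

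Over 2 libraries, likeness of pattern means only a like ratio at a like level. Within 2-fold of its mean level, Cfd had 1 gene with a log2 ratio within 0.1 of its own. The nearest genes to Cfd were Slc39a5 (log2 ratio 4.64), Acot2 (4.42) and Lrtm1 (4.26). In normal liver Slc39a5 was at 0.39 TPM, and Acot2 and Lrtm1 were at 0.49 TPM. Like Cfd, they were below 1 TPM there, so they could be listed only by being higher in diabetic liver. The gene within 0.1 was 1 of 3186 genes in the range of levels of Cfd. The counting interval of the log2 ratio of Cfd, 3.35 to 6.25, was far wider than this window of 0.1. The count therefore cannot show how rare the pattern of Cfd was. By the same measure Cd55 had 167 of 2763 genes within 0.1 and C1ra 149 of 3103, which is 6.04% and 4.8%. The shares were larger for the abundant genes, at 12.5% for C4bp (37 of 297), 11.8% for Masp2 (86 of 731), 11.5% for Mbl2 (59 of 513) and 10.5% for Mbl1 (85 of 809). For C4bp the nearest were Cp, Suclg2 and Cd81, for Mbl2 Insig1, Ube2d3 and Ugt2b34, and for Masp2 Rraga, Capns1 and F12.

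Most of the other complement genes that passed 1.5-fold were lower in diabetic liver. Of 28 other listed complement genes, 3 passed 1.5-fold upward and 13 downward in the diabetic library, which is 10.7% and 46.4%, beside 34.4% and 15.3% of all listed genes. Their median log2 ratio was -0.39, and the median of the 7 was 0.29. Under TMM scaling 1 was higher and 15 were lower, with a median of -0.64. The list of other complement genes was written with earlier results of these data known, and the difference between the lists was not tested.

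In the lectin pathway itself, the other listed recognition molecules lay on both sides of 0. Fcna, a ficolin made by macrophages, had a log2 ratio of -0.66 (95% interval, -0.85 to -0.48). Colec10, a collectin of the liver, had -0.67 (95% interval, -1.03 to -0.32), and Colec11, a related collectin, had 0.50 (95% interval, 0.25 to 0.74), which TMM scaling lowered to 0.24. Beside C1ra, the C1q subunits C1qa and C1qc both had a log2 ratio of -1.80, while C1qb had 0.60, which TMM scaling lowered to 0.35, under 1.5-fold. The macrophage markers, 5 of 7 listed, summed to 101 TPM in normal liver and 81.9 TPM in diabetic liver, with all 5 below 0 in log2 ratio. Of all 8551 listed genes, 5284 were above 0. Csf1r (-1.10) and Emr1 (-1.03) were at least 1.5-fold lower, beside 15.3% of all listed genes. The 95% intervals of Cd5l (-0.19 to 0.11), Cd68 (-0.87 to 0.415) and Clec4f (-1.53 to 0.74) held 0. Cd5l made up most of the sum. Clec4f, the Kupffer cell lectin, was at 1.46 TPM in normal liver and 1.11 TPM in diabetic liver, from 15 reads in each library. Their part in the values of Fcna and C1q was not tested.

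Beside Cfd, the substrate of factor D was lower: Cfb, factor B, had a log2 ratio of -0.71 (95% interval, -0.77 to -0.65). Cfp, properdin, which stabilises the alternative convertase, had -0.92 (95% interval, -1.38 to -0.47), and C3, the component on which all pathways converge, had 0.62 (95% interval, 0.60 to 0.65), or 0.37 under TMM scaling, under 1.5-fold. Among the 6 listed terminal genes, which form the lytic pore, 3 were at least 1.5-fold lower and 0 higher. Of all listed genes, 15.3% were lower and 34.4% were higher at this threshold. C6 had a log2 ratio of -2.24, C8b -1.51 and C8a -1.44. The other 3, named after their values were seen, were C8g at 0.27, C9 at -0.01 and Hc at -0.42, and C8g was the most abundant of the group, at 1215 TPM in normal liver and 1464 TPM in diabetic liver. Of the soluble regulators beside C4bp, 3 of 7 were at least 1.5-fold lower and 0 higher, against the same shares of all listed genes. The 3 lower ones were Cpn2, a subunit of the carboxypeptidase that inactivates anaphylatoxins (-0.84), Vtn, vitronectin (-0.83), and Serping1, the C1 inhibitor (-0.67). Of the membrane regulators beside Cd55, Cr1l, the rodent regulator also known as Crry, was 2.10-fold higher with a log2 ratio of 1.07 (95% interval, 0.81 to 1.33), and Cd59a, which blocks the lytic pore, had -0.12 (95% interval, -0.27 to 0.04).

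**Figure D5:**
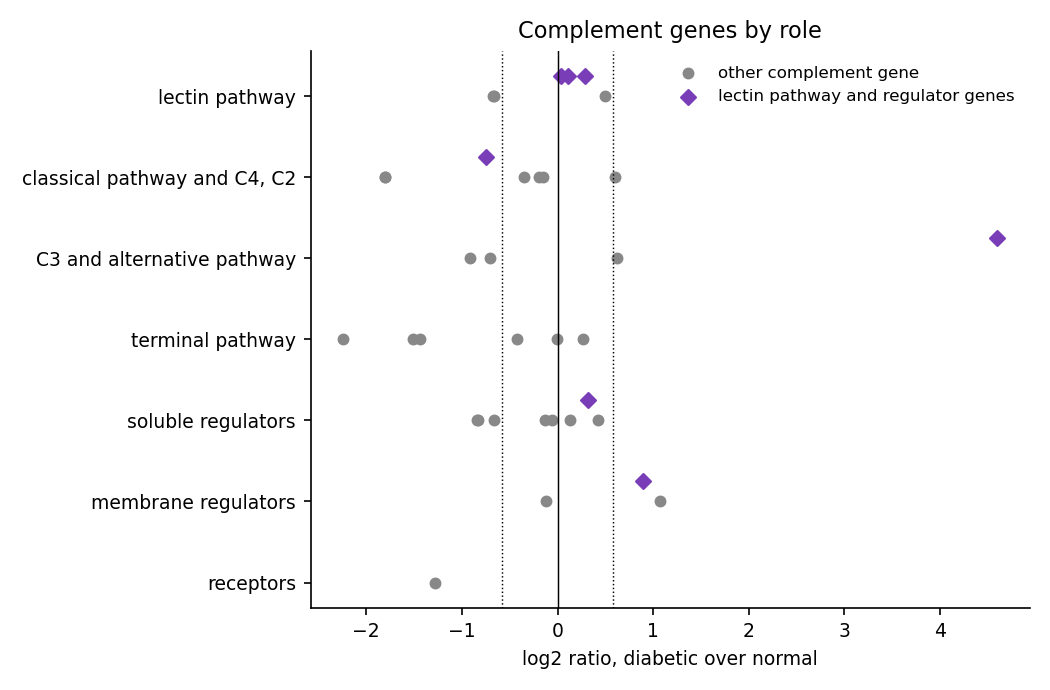
Log2 ratio of diabetic over normal for the 7 genes (purple diamonds) and 28 other listed complement genes (grey points), by role; dotted lines mark 1.5-fold. Grey points lie mostly left of 0, with C6 at -2.24 the lowest, and the diamonds of Mbl1, Mbl2, Masp2 and C4bp lie between 0.03 and 0.32.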

How the data were processed

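Digital gene expression tags of liver RNA were measured in 1 normal and 1 diabetic library, assigned from their labels. The authors isolated poly(A) RNA, digested cDNA with DpnII, sequenced on an Illumina 1G sequencer, compared clean tags with RefSeq and deposited values in RPM, which they call TPM. They rounded these to 2 decimals, put 0.01 in place of 0, and kept genes whose mean was at least 1. The submitters' processing notes name mm9, and the aligner is not given in the sources used here. The number of columns not used was 0.

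The steps of the values gave the reads: 8513 of 8513 values above 0.01 in the normal library and 8536 of 8537 in the diabetic library lay within 0.1 reads of a whole number, and 1955 genes were called higher and 700 lower by the exact test with the fold threshold. The computation was tested on simulated data. With 1 library per group no test between conditions was possible, so genes are called by a fold change of at least 1.5 alone. The study also required an FDR under 0.001, and that rule was an alternative here, with an exact binomial test. The genes and lists were chosen with earlier results of these data known. Named genes were all listed members, in each complement group up to 3 genes with the largest absolute log2 ratio among those averaging 5 TPM or more, C1rb as the paralog of C1ra (chosen after its values were seen), cell type markers, and the 3 genes nearest each member in log2 ratio within 2-fold of its mean. Marker lists for stellate cells (5 listed, sum 107 to 149 TPM from normal to diabetic), endothelial cells (6 listed, 103 to 92.2 TPM), hepatocytes (5 listed, 9117 to 9111 TPM), cholangiocytes (2 listed, 4.28 to 4.22 TPM), neutrophils (1 listed, 2.33 to 3.04 TPM) and lymphocytes (2 listed, 2.63 to 2.88 TPM) were also summed. Most of the hepatocyte sum was Alb. TMM scaling trimmed 30% of ratios and 5% of means, median-ratio scaling drew on genes averaging 10 TPM or more, and upper-quartile scaling the 75th percentile. Tags were read from GENCODE M21 transcripts (GRCm38), whose build differs from mm9, and no other coordinates were used. Computations ran in Python 3.11.15 with scipy 1.17.1, numpy 2.4.6, matplotlib 3.10.9 and pandas 2.3.3.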

Additional observations from a re-analysis of the deposited data

How the results depend on the processing

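No paired analysis was possible because there is 1 library per group, and no library could be left out. The counts of the 7 genes that were at least 1.5-fold higher (2) and lower (1) did not move under the 4 scalings or pseudocounts of 0.1 and 1 TPM. Of the 42 values of single genes under these settings, 25 stayed within the counting interval of the deposited value and 17 moved outside it. The median log2 ratio of the 7 genes moved from 0.29 to 0.03 under scaling to the summed listed genes, 0.03 with TMM, -0.02 with median-ratio and 0.02 with upper-quartile scaling, which all shift every gene alike. A minimum mean of 5 TPM removed C1ra and left 0 of the 7 genes lower. At 2-fold, 1 gene was higher and 0 lower, and with the exact binomial FDR 0 were lower. Over all genes, 2941 were higher and 1310 lower. Lower were 2044, 2023, 2189 and 2076 genes under the 4 scalings in the order above, and higher 1874 under median-ratio scaling. With a minimum mean of 5 TPM the numbers were 1773 higher and 658 lower, at 2-fold 1589 and 582, and with the exact binomial FDR 1955 and 700. Depth limits Cfd and C1ra most, with 5 and 50 reads in the normal library. The direction of Cfd was fixed by the listing.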
